A study of Mus musculus with 6 samples.

Results

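Collagen chain genes were read on 6 two-colour arrays of mouse embryonic fibroblasts, the connective tissue cells that grow out when embryos are minced and put in culture. The chains were taken by name: each non-control probe whose gene name is Col, a number, the letter a and a number, and nothing else. This gave 67 probes for 37 genes, of 41174 probes and 29742 gene names on the array. There were 23 probes for 11 genes of fibrillar chains (types I, II, III, V, XI, XXIV and XXVII), 15 probes for 8 genes of basement membrane chains (types IV, XV and XVIII) and 29 probes for 18 genes of other types. Of the 37 genes, 24 had several probes, and 55 of the 67 probes carried a RefSeq mRNA accession.

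The cells were wild type (WT) or homozygous for a deletion inside the helicase part of Wrn, the mouse counterpart of the gene of Werner syndrome (WS), from mice of a mixed 129/Sv and Black Swiss background, and were labelled as embryonic day 15. Treated cells had 0.5 mM H2O2 for 1 hour and 24 hours of recovery in fresh medium. There were 2 arrays for treated against untreated WT cells, 2 for treated against untreated WS cells and 2 for untreated WS against untreated WT cells. Replicates were separate RNA samples by the labels, and the study calls them biological replicates. The sources used here do not say how many embryos or cultures each stood for. No dyes were exchanged within a comparison, so any bias of a probe towards a dye is part of its ratio. On the treatment arrays treated RNA was in Cy5 by both the labels and the methods. On the genotype arrays the labels put WT RNA in Cy5, whereas the heading of the study's list of these ratios puts WS RNA there. The second reading is used here and is likely rather than settled. Under the labels every sign of this comparison turns.

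Collagens are triple helices of 3 chains. Fibrillar collagens form the tensile cables of skin, bone, tendon and cartilage: types I and III dominate in fibroblasts, type V sets fibril diameter by starting fibril assembly, and types II and XI belong to cartilage. Type IV forms the meshwork of basement membranes, and type VI forms beaded filaments around cells. Fibroblasts are the main producers of types I, III, V and VI. In whole cultures, fewer cells of a type and less RNA per cell cannot be told apart.

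Cy3 stood well above background for 54 to 66 of the 67 collagen probes per array and Cy5 for 32 to 54. None of the 67 spots was saturated in either dye on any of the 6 arrays. Feature Extraction had marked 4 and 21 collagen spots as outliers on WT replicates 1 and 2, 0 and 8 on WS replicates 1 and 2, and 3 on each genotype array. On WT replicate 2 this was 31.34% of the collagen spots against 22.56% of all spots. Marked spots were left out unless stated, and this removed every WT value of the Col1a2 probe and of 2 of the 3 Col1a1 probes. A ratio is given as log2 of Cy5 over Cy3. The plot of the 67 probes by array gives an overview.

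**Figure D1:**
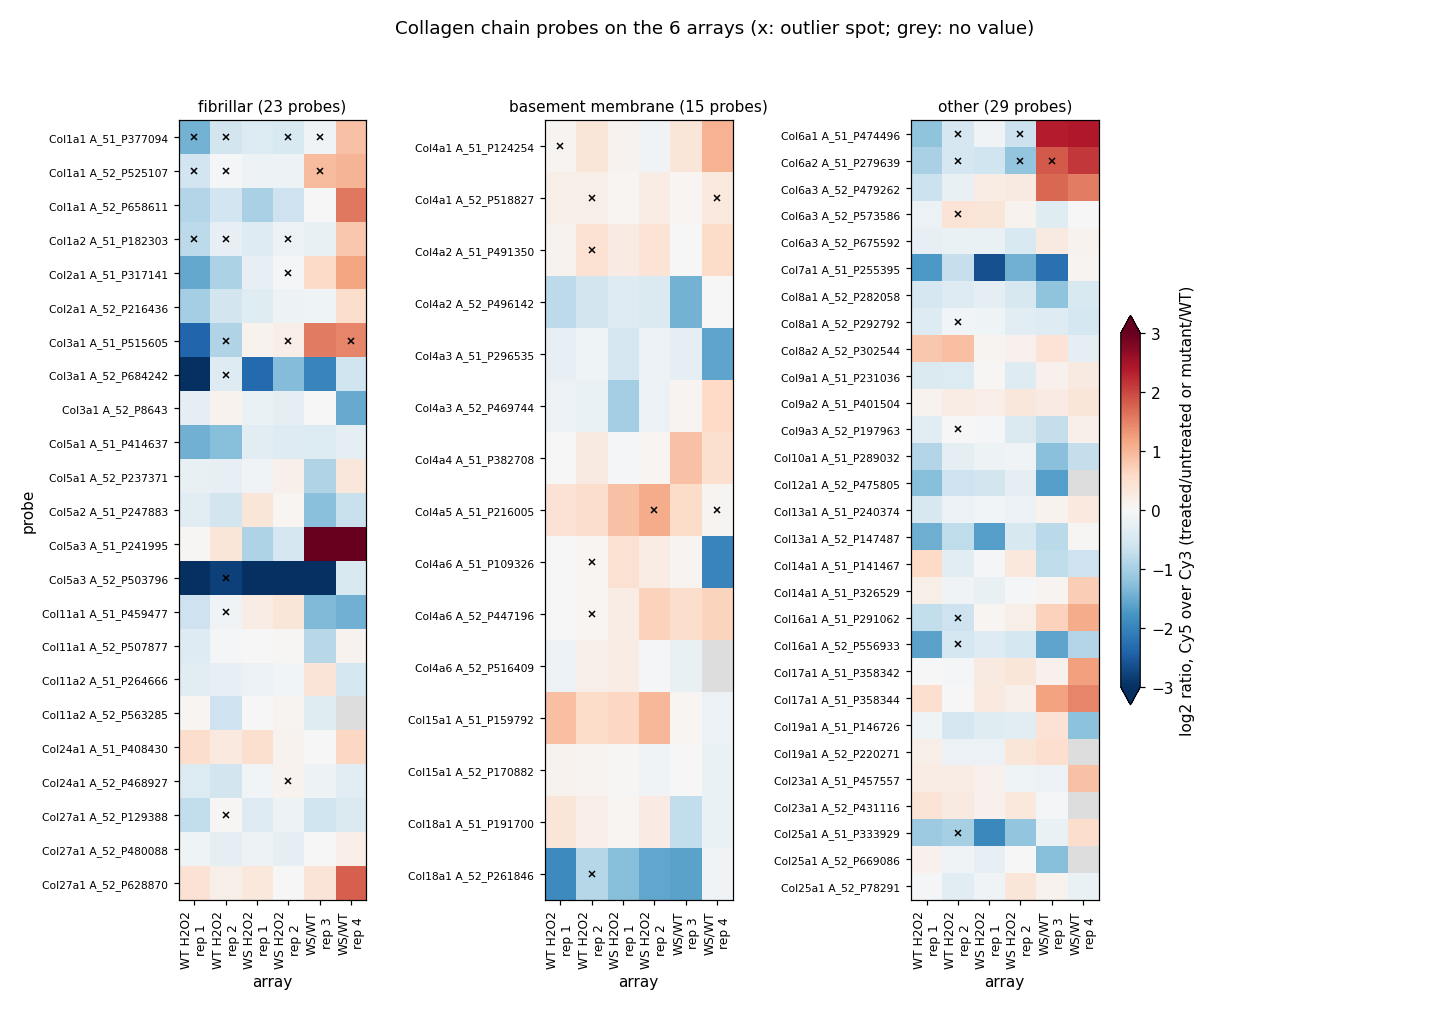
Log2 ratio of Cy5 over Cy3 (colour) for each collagen probe (rows) on each of the 6 arrays (columns), in 3 panels by kind of collagen; crosses mark outlier spots, drawn at their value with outliers kept, and grey cells have no value. The blue row of Col5a3 A_52_P503796 runs across all 6 arrays, while Col5a3 A_51_P241995 and 1 probe each of Col6a1, Col6a2 and Col6a3 are red on both genotype arrays.

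The collagen difference between untreated genotypes was led by a probe of a type V chain and by 1 probe of each of the 3 chains of type VI collagen, all higher in WS cells. In limma's fit over the 6 arrays, 10 of the 67 collagen probes were higher and 7 lower at an adjusted p under 0.05, that is 14.9% and 10.4%. Over all 41099 probes tested the shares were 9.83% higher and 9.78% lower, so in number the collagens stood near the background. Of the 10, the probes of Col3a1 and Col6a2 had 1 value in each comparison, so that the fit held no spread of their own, and they are given below with marked spots kept. Without 3 such probes, 8 of 64 were higher and 7 lower, against 9.94% and 9.83% of all such probes. The median log2 ratio of the collagen probes was -0.03, against 0.00 over all probes. Of 23 fibrillar probes 4 were called higher and 2 lower, of 15 basement membrane probes 1 and 0, and of 29 other probes 5 and 5. Leaving out a single array moved these counts. Without replicate 3 of the genotype arrays 19 of 58 were higher and 9 lower, where all probes had 22.5% higher and 20.8% lower. Without replicate 4, 7 of 64 were higher and 17 lower, where all probes had 12.8% and 16.1%. Without either WS treatment array 5 were higher and 1 lower, where all probes had 4.78% and 4.23%. With median centring in place of loess 8 probes were called higher and 2 lower, against 6.47% and 4.17% of all probes.

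Col5a3, a less widely made chain of type V collagen, had log2 ratios of 3.17 and 3.01 at its probe A_51_P241995. Both arrays lay close together, and the mean of 3.09 ± 0.18 (SE, n = 2) had an adjusted p of 0.000543 by limma. The brighter Col5a3 probe, A_52_P503796, went the other way without passing, at -4.48 and -0.45 (adjusted p = 0.0926). Col6a1 stood at 2.35 and 2.41 (2.38 ± 0.17, n = 2, adjusted p = 0.00287), again with close arrays. Its partner chain Col6a2 had 1 usable value, 2.13, given with no test, and the marked spot of the other array read 1.83. With marked spots kept its mean was 1.99 (n = 2, adjusted p = 0.00179 by limma). Col6a3, the largest of the type VI chains, stood at 1.73 and 1.53 at probe A_52_P479262 (1.63 ± 0.17, n = 2, adjusted p = 0.00255). Its probe A_52_P573586 stood at -0.35 and -0.02 (adjusted p = 0.497), with a mean log2 intensity of 5.55 against 9.87 for the called probe, and A_52_P675592 was not well above background in either dye on these arrays. The calls of Col6a1, of Col6a3 A_52_P479262 and of Col5a3 A_51_P241995 were kept in each alternative in which the probe had a value, 19, 19 and 18 in number, with a highest adjusted p of 0.0293, 0.0239 and 0.0165.

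The promoter stretches of these 4 genes are shown because 1 probe of each led the genotype difference and because Col6a1 and Col6a2 are neighbours in the RefSeq gene table. Other probes of Col5a3 and Col6a3 did not follow, and a shared control of the 4 genes was not tested. The table of promoters has an entry for 30 of the 37 genes. Each line gives the 150 bases before the RefSeq start (GRCm38.p6, gene strand, all on the minus strand), with the more upstream of 2 starts for Col6a2. Col5a3 lies at chr9:20815068-20815217, Col6a1 at chr10:76726045-76726194, Col6a2 at chr10:76623631-76623780 and Col6a3 at chr1:90843972-90844121. Capitals mark matches, on either strand, to the CCAAT box, to the GC box (GGGCGG) or to TATAA.
Col5a3: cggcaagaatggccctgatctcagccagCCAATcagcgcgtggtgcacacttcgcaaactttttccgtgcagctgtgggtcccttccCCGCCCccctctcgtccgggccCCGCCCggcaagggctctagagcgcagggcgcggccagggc
Col6a1: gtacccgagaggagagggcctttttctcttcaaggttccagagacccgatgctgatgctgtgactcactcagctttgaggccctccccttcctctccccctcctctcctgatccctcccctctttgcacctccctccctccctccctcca
Col6a2: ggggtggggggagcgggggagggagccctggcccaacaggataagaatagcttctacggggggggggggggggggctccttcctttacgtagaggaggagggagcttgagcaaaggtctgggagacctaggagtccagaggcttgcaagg
Col6a3: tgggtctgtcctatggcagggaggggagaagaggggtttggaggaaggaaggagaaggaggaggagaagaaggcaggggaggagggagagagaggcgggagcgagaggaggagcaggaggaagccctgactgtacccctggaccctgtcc

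Col5a3 held 1 CCAAT match, at -122 to -118 from the start, and 2 GC box matches, at -63 to -58 and -41 to -36. The other 3 stretches held none of these letters. Among all 32851 starts in the table, 24.5% had a CCAAT match, 28.6% a GC box match and 14.2% a TATAA match in the same window. Among the 33 starts of collagen genes on the array the shares were 24.2%, 48.5% and 12.1%. The type VI stretches were lopsided between strands: pyrimidines made up 70.7% of the bases of Col6a1, 32.0% of Col6a2 and 24.0% of Col6a3.

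Among the fibrillar chains, 1 of 3 probes each of Col1a1 and Col3a1 was also higher in WS cells. The brightest Col1a1 probe, A_52_P525107, had 1 usable value, 1.01 (adjusted p = 0.048), and the marked spot read 0.96. The other Col1a1 probes did not pass: A_51_P377094 had 1 value, 0.87, with no test (0.40 with marked spots kept, adjusted p = 0.351), and A_52_P658611 stood at 0.02 and 1.57. Col1a2, the partner chain of type I, stood at -0.22 and 0.81 (0.30 ± 0.29, adjusted p = 0.51). Col3a1 A_51_P515605 had 1 value, 1.55, given with no test. With marked spots kept its mean was 1.56 (n = 2, adjusted p = 0.0129). The other Col3a1 probes had means below 0 without passing: A_52_P684242 stood at -1.97 and -0.61 (adjusted p = 0.066), and A_52_P8643 had an adjusted p of 0.154, with its Cy5 not well above background on either genotype array. Col2a1, the chain of cartilage fibrils, stood at 0.57 and 1.19 at A_51_P317141 (adjusted p = 0.0492), and at -0.12 and 0.52 at its second probe (adjusted p = 0.535). Probes of Col11a1, a cartilage chain, and of Col5a2, of type V, were called lower. Col11a1 A_51_P459477 stood at -1.33 and -1.43 (-1.38 ± 0.16, n = 2, adjusted p = 0.00507), and its second probe at -0.84 and 0.11 (adjusted p = 0.31). Col5a2 stood at -1.25 and -0.67 (-0.96 ± 0.20, n = 2, adjusted p = 0.0186). Col5a1 A_51_P414637, for another chain of type V, stood at -0.40 and -0.27 without passing (adjusted p = 0.165). The second Col5a1 probe stood at -0.91 and 0.35 (adjusted p = 0.518).

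In basement membrane collagens the single call was Col4a4, a chain of the kidney and ear networks, at 0.88 and 0.48 (adjusted p = 0.0356). The main type IV chains did not pass. Col4a1 stood at 0.36 and 1.04 at one probe (adjusted p = 0.0709) and Col4a2 at 0.00 and 0.55 (adjusted p = 0.365), while the second Col4a2 probe stood at -1.41 and 0.01. Col18a1, the precursor of endostatin, stood at -0.73 and -0.20 at A_51_P191700 (adjusted p = 0.119). The 15 basement membrane probes ranged from -0.95 to 0.70.

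Of the remaining types, Col17a1, a transmembrane chain of epithelial hemidesmosomes, stood at 1.20 and 1.45 at A_51_P358344 (adjusted p = 0.00548), although its Cy5 was well above background on 1 of 2 arrays. Col10a1, the chain of hypertrophic cartilage, stood at -1.26 and -0.72 (adjusted p = 0.0201), and Col8a1 A_52_P282058, of a hexagonal network, at -1.20 and -0.47 (adjusted p = 0.0332). The second Col8a1 probe lay at -0.38 and -0.54 without passing (adjusted p = 0.106). Both probes of Col16a1, a chain that associates with fibrils, were called in opposite directions, A_51_P291062 at 0.69 and 1.10 (adjusted p = 0.0224) and A_52_P556933 at -1.58 and -0.88 (adjusted p = 0.0147). Col12a1 had 1 value, -1.65, but its Cy5 was not well above background on either array, so Cy3 was at least 1.15-fold above Cy5. Untreated RNA of one genotype also read lower in Cy5 than in Cy3 there (log2 -0.86 with WS RNA in Cy5, -1.19 with WT). Dye and genotype cannot be told apart for it. Col25a1 A_52_P669086 (adjusted p = 0.0188) was not well above background in either dye on any array, and no fold is given. Col27a1 A_52_P628870, of a fibrillar chain, stood at 0.39 and 1.79 (adjusted p = 0.0508), with each dye well above background on 1 of 2 arrays.

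The treatment arrays allow the same genotypes to be compared within one dye. Untreated WS and untreated WT RNA were both in Cy3 there, on different arrays, so array and genotype cannot be told apart. In limma's fit of the Cy3 values, Col5a3 A_51_P241995 was the single collagen probe called of 64, higher in WS cells by 2.70 ± 0.39 (SE, 2 against 2 arrays, adjusted p = 0.00685), and 0 were called lower. Over all probes 0.216% were called higher and 0.271% lower, and the median of all probes was -0.10. The 17 collagen probes called on the genotype arrays included 16 with a Cy3 value, and all 16 had the sign that WS RNA in Cy5 gives. Over all 7887 called probes with a Cy3 value, 89.7% had it. Col6a3 A_52_P479262 stood at 1.37 ± 0.46 (adjusted p = 0.331) and Col11a1 A_51_P459477 at -1.45 ± 0.50 (adjusted p = 0.35). Col6a1 stood at 1.29 and Col6a2 at 1.20, each from 1 array per genotype and with no test. Without WT replicate 1 the Cy3 fit called 2 of 46 collagen probes higher and 8 lower, where all probes had 2.31% higher and 12.9% lower. Without WT replicate 2 it called 1 of 63 higher and 1 lower (all probes 0.717% and 0.625%), and without either WS array 0 (0% of all probes). Of the probes with all 4 values, the lowest were Col8a1 A_52_P282058 (-1.41), Col10a1 (-1.03), Col15a1 A_51_P159792 (no fold, as its Cy3 was not well above background on either WS array), Col9a1 (-0.90) and Col6a3 A_52_P675592 (-0.73). The highest after Col5a3 and Col6a3 were Col8a2 (0.71), Col15a1 A_52_P170882 (0.58) and Col4a4 (0.53).

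**Figure D2:**
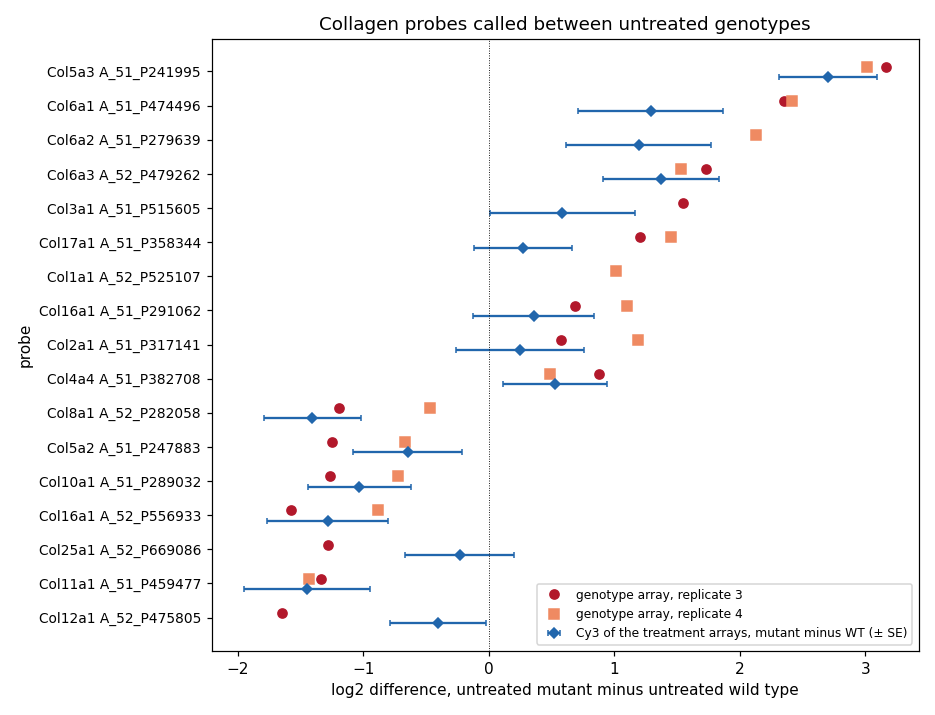
Log2 difference of untreated WS minus untreated WT cells (horizontal axis) for the 17 collagen probes called on the genotype arrays: circles and squares are the 2 genotype arrays, and diamonds with bars are the Cy3 comparison of the treatment arrays ± SE (for Col3a1, Col6a1 and Col6a2 from limma's prior alone). Col5a3 A_51_P241995 sits at 3.17 and 3.01 on the arrays and at 2.70 in Cy3, and each diamond lies on the same side of 0 as its circles and squares.

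Treated WS and treated WT RNA were compared in the same way within Cy5. No collagen probe of 64 was called in either direction, at shares of 0.169% higher and 0.159% lower over all probes. At an unadjusted p under 0.05, 9 of the 64 collagen probes were higher and 3 lower, where all probes had 2.73% higher and 6.21% lower. Of the 9, Col3a1 A_51_P515605, Col6a1 and Col6a2 had 1 value per genotype and no spread of their own. Among the collagen probes with all 4 values the highest were Col6a3 A_52_P479262 (2.05 ± 0.48, adjusted p = 0.16) and Col5a3 A_51_P241995 (1.79 ± 0.38, adjusted p = 0.113), which also led in Cy3. Col13a1 A_51_P240374, Col15a1 A_52_P170882 (0.45) and Col1a1 A_52_P658611 (0.42) followed. The lowest were Col8a1 A_52_P282058 (-1.34), Col7a1 (-0.98), Col15a1 A_51_P159792, Col6a3 A_52_P675592 and Col18a1 A_51_P191700 (-0.83). The 3 probes given without a value were not well above background in Cy5 on either WS array. Without WT replicate 1, 2 of 46 were called higher and 4 lower, where all probes had 1.28% and 7.07%. Without WT replicate 2, Col3a1 A_51_P515605 and Col6a1 again had no spread of their own and WT cells had 1 array, so no count is given.

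At 24 hours after H2O2, most fibrillar collagen probes of WT cells read below untreated cells, whereas basement membrane probes were spread around 0. The median log2 ratio was -0.46 over the 20 fibrillar probes with a value, 17 of them below 0. It was -0.26 over 15 probes, 11 below 0, without WT replicate 1, and -0.26 over 20 with median centring. With marked spots kept it was -0.36 over 23, 20 below 0. With 1 probe per gene it was -0.74 over 9, all below 0, the value of Col27a1 A_52_P129388, which rests on 1 WT array. The median was 0.09 over 15 basement membrane probes, -0.32 over 29 other probes and -0.01 over all 40303 probes tested. In limma's fit over the 6 arrays 1 collagen probe of 64 fell and 0 rose, where all probes had 0.139% lower and 0.119% higher. That probe was Col5a1 A_51_P414637, for the first chain of type V collagen, at -1.44 and -1.28 (-1.36 ± 0.15, n = 2, adjusted p = 0.0404). Its second probe, with a mean log2 intensity of 5.90 against 9.77, stood at -0.22 and -0.25 (adjusted p = 0.718). The call was lost without either WT array and without either WS treatment array, with 0 collagen calls each time.

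This count depended on the spread that the genotype arrays brought into the fit. These 2 arrays had been extracted on different days, and the 4 treatment arrays on 1 further day. With a term for the day of the genotype arrays, added after the data were examined, the WT ratios stayed as they were and 22 of 64 collagen probes were lower and 3 higher. Of the 22, the probes of Col3a1, Col6a1 and Col6a2 had 1 value per genotype and no spread of their own. Over all probes 11.7% were then called lower and 11.2% higher, so that 34.4% of collagen probes were lower against 11.7% of all. Among probes with a spread of their own 19 of 61 were lower and 3 higher, against 11.2% and 11.4% of all such probes. The 22 comprised 10 of 20 fibrillar, 2 of 15 basement membrane and 10 of 29 other probes. They included Col5a3 A_52_P503796, Col3a1 A_52_P684242, Col7a1, Col18a1 A_52_P261846, Col12a1 and Col13a1 A_52_P147487, which also read lower in Cy5 for untreated RNA, as given elsewhere. Further probes of the 22 did too, such as Col10a1 (log2 -0.50 with WS RNA in Cy5, -1.14 with WT). The part of the dye in the share of 34.4% was not tested. With normexp background correction 5 collagen probes were called lower and 2 higher in the fit without the day term, where all probes had 2.14% lower and 3.42% higher.

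Col2a1 stood at -1.54 and -0.96 at A_51_P317141 (adjusted p = 0.0684, with the day term 0.00126) and at -1.03 and -0.56 at its second probe (adjusted p = 0.107, with the day term 0.00511). Both probes were below 0 on both arrays. Col1a1 A_52_P658611 stood at -0.87 and -0.56 (adjusted p = 0.302, with the day term 0.00724). The marked spots of the bright Col1a1 probes read -1.42 and -0.56 at A_51_P377094 and -0.58 and -0.07 at A_52_P525107, and those of Col1a2 read -0.80 and -0.25. Each of these type I readings lay below 0, and on each of them replicate 1 was the lower array. Col3a1 A_51_P515605 had 1 value, -2.37, with no test, and the marked spot read -0.91. With marked spots kept, limma called 3 collagen probes, all lower: this one (-1.62, adjusted p = 0.0473), Col2a1 A_51_P317141 and Col5a1 A_51_P414637. All probes then had 1.22% lower and 1.17% higher. Col5a2 stood at -0.32 and -0.55 (adjusted p = 0.287), and Col5a3 A_51_P241995 at 0.03 and 0.37 (adjusted p = 0.607). Col11a1 A_51_P459477 had 1 value, -0.62 (adjusted p = 0.209).

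The type VI chains were also below 0 in treated WT cells. Col6a1 had 1 value, -1.21 (adjusted p = 0.0883), Col6a2 had 1, -0.97, with no test (-0.73 with marked spots kept, adjusted p = 0.108), and Col6a3 A_52_P479262 stood at -0.64 and -0.22 (adjusted p = 0.227). The marked spots read -0.50 for Col6a1 and -0.49 for Col6a2. Other low probes were Col7a1, of anchoring fibrils, at -1.72 and -0.68, Col13a1 A_52_P147487, a transmembrane chain, at -1.47 and -0.77, with adjusted p of 0.285 and 0.132. Col12a1, which associates with fibrils, also ranked among the lowest (adjusted p = 0.0893). These Col7a1, Col13a1 and Col12a1 probes also read lower in Cy5 for untreated RNA, so dye and response cannot be told apart for them. At the upper end Col8a2 stood at 0.80 and 0.89 (0.85 ± 0.19, adjusted p = 0.0815) and Col15a1 A_51_P159792 at 0.89 and 0.55 (adjusted p = 0.0939). Col4a5 followed at 0.44 and 0.53 (adjusted p = 0.22), and then Col24a1 A_51_P408430 and Col23a1 A_52_P431116 (adjusted p = 0.323 and 0.34). No fold is given for Col12a1 and for the last 2, whose Cy5 was not well above background on either WT array. Col4a1 and Col4a2 had 1 value at 3 of their 4 probes, 0.37, 0.18 and 0.11, and -0.78 and -0.54 at Col4a2 A_52_P496142 (adjusted p = 0.294).

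**Figure D3:**
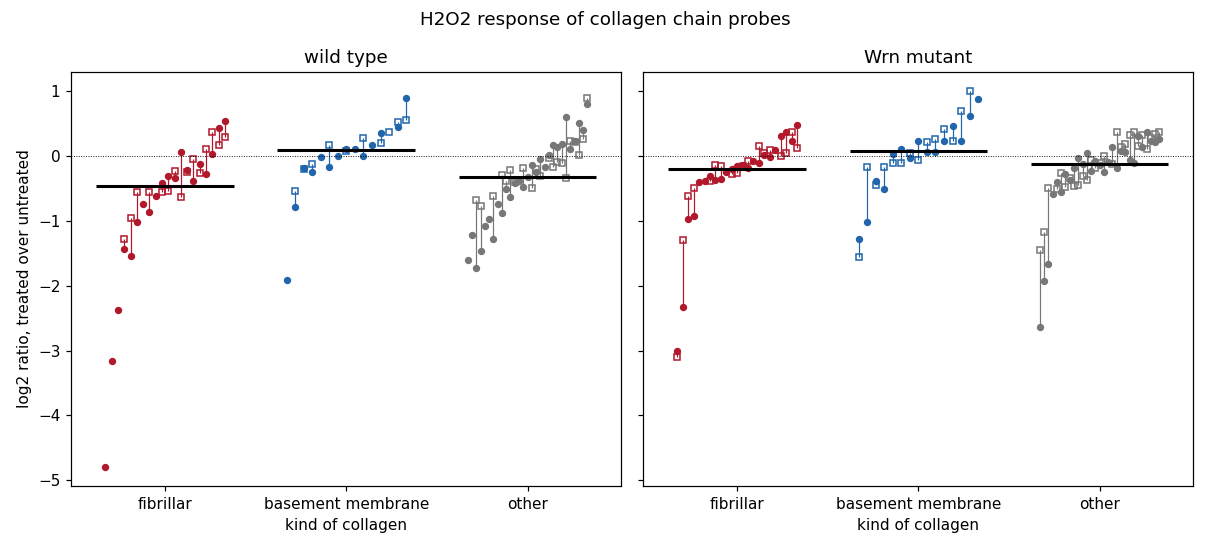
Log2 ratio of treated over untreated cells (vertical axis) for each collagen probe with a value, sorted within the 3 kinds of collagen, in WT (left) and WS cells (right); filled circles are replicate 1, open squares replicate 2, a thin line joins them, and black bars are medians. The fibrillar median is -0.46 in WT cells (-0.26 without replicate 1) and -0.21 in WS cells.

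In WS cells the collagen ratios after H2O2 lay closer to 0, apart from a few low probes. The median was -0.21 over 23 fibrillar probes, 0.08 over 15 basement membrane probes and -0.13 over 29 other probes, against 0.01 over all probes. Limma called 0 of 67 collagen probes and 0% of all 41052 probes, and at an unadjusted p under 0.05 there were 11 collagen probes of 67, against 12% of all probes. With the day term 8 collagen probes were lower and 2 higher, 11.9% and 2.99%, where all probes had 5.69% lower and 4.23% higher. The lowest were Col5a3 A_52_P503796 (-3.01 and -3.09), Col7a1 (-2.64 and -1.45) and Col3a1 A_52_P684242 (-2.33 and -1.30). Col25a1 A_51_P333929, of a transmembrane chain found in amyloid plaques, stood at -1.93 and -1.18, and Col18a1 A_52_P261846 at -1.28 and -1.56. These 5 had adjusted p between 0.229 and 0.294 without the day term. The Col5a3, Col7a1, Col3a1 and Col18a1 probes and Col13a1 A_52_P147487, all among the 8 lower with the day term, also read lower in Cy5 for untreated RNA. Dye and response cannot be told apart for them. The highest were Col15a1 A_51_P159792 (adjusted p = 0.253), Col4a6 A_52_P447196 (0.23 and 0.69), Col4a6 A_51_P109326, Col4a2 A_51_P491350 (0.24 and 0.42) and Col17a1 A_51_P358342. The 3 probes given without values were not well above background in Cy5 on either WS array. Col4a5, one of the 2 probes that were higher with the day term, had 1 value, 0.88 (adjusted p = 0.316, with the day term 0.0234), and the other was that Col15a1 probe.

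Several chains that read low in treated WT cells read nearer to 0 in treated WS cells. Col5a1 A_51_P414637 stood at -0.30 and -0.38, Col2a1 A_52_P216436 at -0.36 and -0.15, Col5a2 at 0.36 and 0.05, and Col6a3 A_52_P479262 at 0.23 and 0.27. Col3a1 A_51_P515605 had 1 value, 0.10, and Col6a1 had 1, -0.10. Others read as low or lower in WS cells. Col5a3 A_51_P241995, at 0.03 and 0.37 in WT cells, stood at -0.93 and -0.49, and Col7a1 had a mean of -2.04 in WS against -1.20 in WT cells. The means of Col25a1 A_51_P333929 were -1.55 and -1.08. Col13a1 A_52_P147487 was not well above background in Cy5 on either WS array. Cy3 of untreated WS RNA was at least 1.60-fold above Cy5 of treated WS RNA. Untreated RNA also read lower in Cy5 than in Cy3 at this probe (log2 -0.94 with WS RNA in Cy5, -1.07 with WT). Dye and response cannot be told apart for it. For type I, Col1a1 A_52_P658611 stood at -0.97 and -0.61, as low as in WT cells, while the bright Col1a1 A_52_P525107 stood at -0.14 and -0.16 and Col1a2 at -0.39 on 1 array.

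The difference of the responses, WS minus WT, was tested directly. It had a median of 0.17 over 64 collagen probes and 0.37 over 20 fibrillar probes, of which 14 were above 0, against 0.01 over all probes. Without WT replicate 1 these medians were 0.05 and, over 15 fibrillar probes, 0.11. With marked spots kept they were 0.09 and, over 23 fibrillar probes, 0.26. With 1 probe per gene the fibrillar median was 0.92 over 9, the value of Col11a1 A_51_P459477, which rests on 1 WT array. Limma called 0 of the 64 and 0% of all 40267 probes, with 10 collagen probes at an unadjusted p under 0.05, against 5.94% of all probes. Of the 10, Col3a1 A_51_P515605 had 1 value per genotype and no spread of its own. With the day term 3 collagen probes were called, all with the higher ratio in WS cells, and all fibrillar: Col3a1 A_51_P515605, Col5a3 A_52_P503796 (1.75 ± 0.23, adjusted p = 0.0162) and Col5a1 A_51_P414637 (1.01 ± 0.18, adjusted p = 0.0349). Over all probes 0.728% were then higher and 0.546% lower. The Col3a1 value of 2.47 rests on 1 array of each genotype and is given with no test, and the Col5a3 value rests on 1 WT array. With marked spots kept the Col5a3 means lay closer together, at -3.79 in WT and -3.02 in WS cells. With marked spots kept and no day term the Col3a1 difference was 1.77 (adjusted p = 0.47). Among probes with all 4 values the largest differences above 0 after Col5a1 were Col6a3 A_52_P479262 (0.68), Col5a2 (0.64), Col12a1 and Col2a1 A_52_P216436 (0.53). Those furthest below 0 were Col5a3 A_51_P241995 (-0.91), Col7a1 (-0.84), Col8a2 (-0.74), Col4a3 A_52_P469744 and Col23a1 A_51_P457557, with adjusted p of 0.713 for Col5a3 and above it for the others. Col12a1, Col4a3 and Col23a1 are given without a value because their Cy5 was not well above background on either WS array.

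Probes of the same gene disagreed widely, most of all for Col5a3. On the genotype arrays 14 of 24 genes with several probes had probes of opposite sign, with a median span of 0.79 and a largest span of 5.55, for Col5a3. Among treated WT cells 8 of 23 genes had probes of opposite sign and among treated WS cells 13 of 24, and the largest span was again that of Col5a3 in each. Col5a3 A_52_P503796 read -4.80 and, at the marked spot, -2.81 in WT cells, -3.01 and -3.09 in WS cells, and -4.48 and -0.45 on the genotype arrays (adjusted p = 0.0926). It was below 0 on every array, although the RNA in Cy5 was treated on 4 of them and untreated on 2. Its mean log2 intensity was 8.90, above the 6.86 of the other Col5a3 probe. Col3a1 A_52_P684242 was likewise low on all 6 arrays, at -3.16 and, marked, -0.38 in WT cells and at -1.97 and -0.61 on the genotype arrays. So was Col18a1 A_52_P261846, at -1.91 and, marked, -0.85 in WT cells and at -1.60 and -0.11 on the genotype arrays. Col7a1 was low on 5 arrays and stood at -2.23 and 0.07 on the genotype arrays. Marked spots kept, 9 of 61 collagen probes with 6 values were below 0 on all 6 arrays, 14.75% against 9.91% of all probes.

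With marked spots kept, untreated RNA of one genotype was read in Cy5 on the genotype arrays and in Cy3 on the treatment arrays, which gives a reading of the dyes and arrays without a treatment. With WS RNA in Cy5, Cy5 of the genotype arrays minus Cy3 of the WS arrays was -2.73 for Col5a3 A_52_P503796, -1.78 for Col3a1 A_52_P684242, -1.91 for Col7a1 and -0.93 for Col18a1 A_52_P261846. With WT RNA in Cy5 it was -2.77, -1.69, -1.63 and -1.34, so these probes read lower in Cy5 for either direction. It was 0.69 for Col5a3 A_51_P241995, 0.50 for Col6a1 and 0.35 for Col5a1 A_51_P414637 with WS RNA in Cy5, and 3.66, 2.61 and 0.13 with WT RNA in Cy5. For Col5a3 A_52_P503796, Col3a1 A_52_P684242, Col7a1 and Col18a1 A_52_P261846, a response to H2O2 and the dye cannot be told apart from the ratio.

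**Figure D4:**
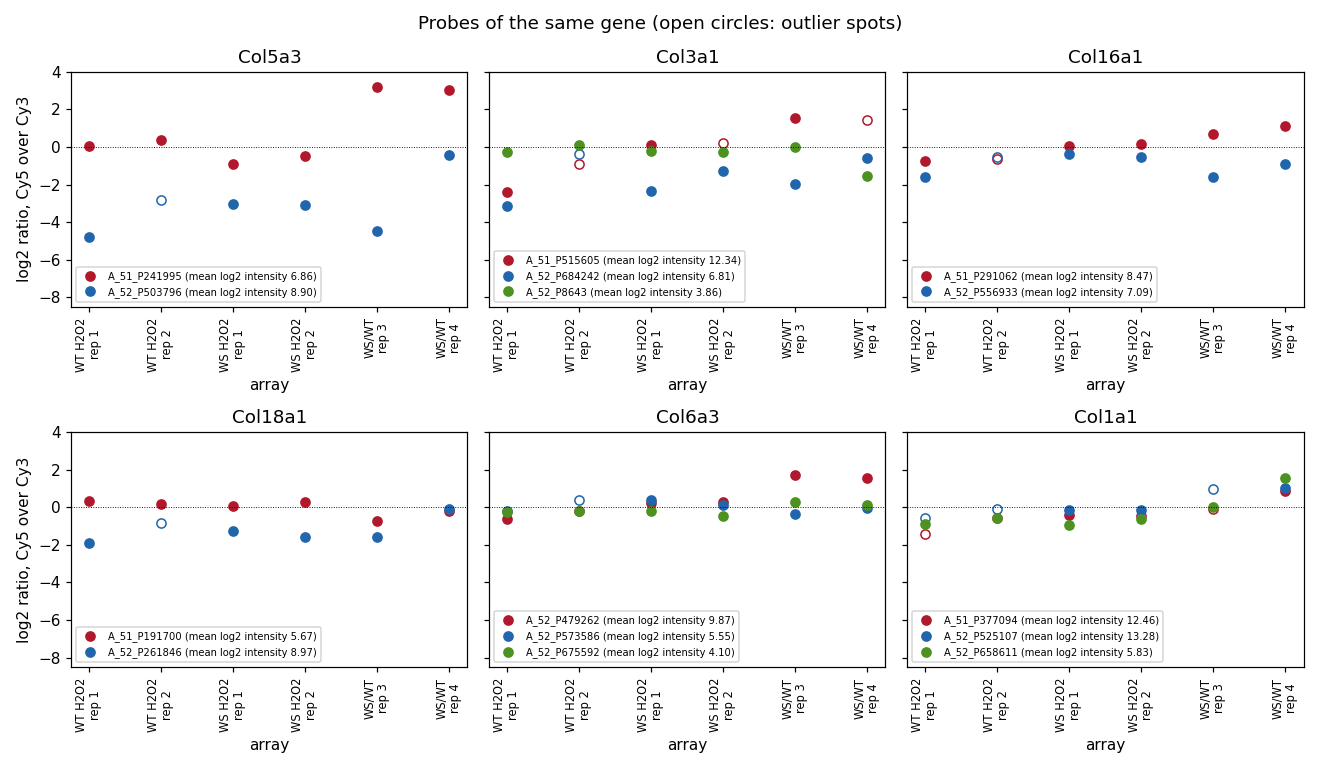
Log2 ratio of Cy5 over Cy3 (vertical axis) on each of the 6 arrays (horizontal axis) for every probe of 6 collagen genes, 1 colour per probe; open circles are outlier spots. Col5a3 A_52_P503796 lies between -4.80 and -0.45 on the 6 arrays, whereas Col5a3 A_51_P241995 is near 0 or below on the treatment arrays and at 3.17 and 3.01 on the genotype arrays.

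Genes that fold, trim, link and bind collagen were read from fixed lists. On the genotype arrays, of 19 probes of folding and hydroxylation genes 4 were higher and 2 lower, where all probes had 9.83% higher and 9.78% lower. Plod2, a lysyl hydroxylase that directs crosslinks, was higher at both probes (0.96 and 1.47, and 0.92 and 1.62, adjusted p = 0.00751 and 0.0124), as were the collagen chaperone Serpinh1 (0.91 and 0.82, adjusted p = 0.0132) and Fkbp10 (0.65 and 0.62, adjusted p = 0.0427). Plod3, which also adds sugars to collagen, was lower at A_52_P207278 (-2.30 and -0.74, adjusted p = 0.0241), while its brighter probe stood at -0.45 and 0.11 (adjusted p = 0.543). Fkbp14 was lower at A_51_P447287 (-0.60 and -0.72, adjusted p = 0.0428), while its brighter probe stood at 0.72 and 0.22 (adjusted p = 0.141). Of 9 probes of propeptide removal genes, the N-propeptidase Adamts2 was higher at 1 of 3 probes (0.76, adjusted p = 0.0161) and Tll1 lower (-1.04, adjusted p = 0.01). None of 7 probes of the crosslinking lysyl oxidases was called. Small proteoglycans that bind fibrils had 5 of 9 probes higher and 0 lower, for Prelp (3.45 and 2.73 at A_52_P486260, adjusted p = 0.00123, and 1.09 at its other probe), Dcn (3.02 and 2.39, adjusted p = 0.00182), Kera (1.44, adjusted p = 0.0177) and Lum (1.14, adjusted p = 0.0385). Of 16 receptor probes, Ddr1 (1.06), Gp6 (1.30) and Itga11 (1.17) were higher and 1 of 3 probes of Itgb1 (-2.33) lower. Within Cy3, Prelp A_52_P486260 was higher in WS cells by 2.24 (adjusted p = 0.0228) and Dcn by 1.92 (adjusted p = 0.0895).

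No probe of these lists was called after H2O2 in either genotype. Their medians in WT cells were -0.53 for folding, -0.05 for propeptide removal, -0.73 for crosslinking, -0.12 for proteoglycans and -0.01 for receptors. In WS cells they were -0.41, -0.22, -0.24, 0.06 and -0.13. Among probes with both values, those furthest from 0 in WT cells were Plod3 (-1.34), Lepre1 (-0.95) and Fkbp14 (-0.86) for folding, Pcolce (-0.53), Pcolce2 (0.49) and Tll1 (-0.32) for propeptide removal, and Loxl1 (-0.99, adjusted p = 0.0521), Loxl4 and Loxl3 (-0.12) for crosslinking. For proteoglycans they were Kera (1.28), Dcn (-1.11) and Lum (-0.99), and for receptors Mrc2 (-1.05) and 2 probes of Lair1 (0.53 at A_52_P219230). In WS cells they were P4ha1 (-1.02), Plod3 (-0.81) and Plod1 (-0.78), then Adamts2 (-0.94), Bmp1 (0.44) and Tll1 (-0.25), Loxl2 (-0.40 and -0.30 at its 2 probes) and Loxl4 (-0.28), Kera (0.61), Fmod (0.51) and Prelp (0.10), and Gp6 (1.10), Itga11 (-0.96) and Lair1. No value is given for Loxl4 in WT cells or for Lair1 A_51_P503797, each not well above background in one dye on all 6 arrays.

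Markers were read to check the cells. Of 10 fibroblast genes 9 had Cy3 well above background on all 6 arrays. Summed Cy3 intensity of the fibroblast list, on each scanner's own scale, was 181244 to 204699 in untreated WT and 79589 to 87265 in untreated WS RNA on the treatment arrays. For the chondrocyte list it was 17961 to 33624 and 4254 to 5078, for the osteoblast list 3218 to 3678 and 1190 to 1259, and for the smooth muscle and myofibroblast list 70375 to 78300 and 17824 to 19175. The sums of all 4 lists were thus lower on both WS arrays, whose scale relative to the WT arrays was not set for these sums. Those of the endothelial, epithelial, macrophage and skeletal muscle lists were lower there too. On the genotype arrays the fibroblast list had 5 probes higher and 1 lower of 14, where all probes had 9.83% higher and 9.78% lower, with Pdgfra (2.18 at A_51_P345649) and Pdgfrb (1.23) among those higher and Fbln2 (-1.86) lower. Dcn and Lum, counted above among the proteoglycans, are on this list too and are counted again in its 5. The chondrocyte list had 1 higher and 3 lower of 17, with Sox9 (-1.73 at A_51_P451606), Matn1 (-2.69) and a Sox6 probe (-0.77) lower and another Sox6 probe (1.45) higher. The smooth muscle and myofibroblast list had 1 lower of 7, Tagln (-2.15). Of the endothelial, epithelial, macrophage, osteoblast and skeletal muscle lists, 2 of 6, 5 of 6, 4 of 5, 5 of 7 and 5 of 6 genes had Cy3 well above background on all 6 arrays, and 0 to 2 probes of each were called on the genotype arrays. The part of other cell types in the collagen differences was not tested.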

How the data were processed

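RNA of 6 pairs of fibroblast samples was hybridised by the authors to two-colour Agilent arrays. The scanner files were deposited with Cy3 and Cy5 intensity per spot, background intensity, spot flags and a log10 ratio of Cy5 over Cy3 from Feature Extraction 7.5.1, per the file headers; the authors also deposited a series table of log2 ratios. Genome build and probe sequences are not given in the sources used here. Mean signals minus background were normalized within each array by loess, with weight 0 for control and outlier spots, in limma 3.58.1 (R 4.3.3). The fit (lmFit, eBayes, two-sided) held all 6 arrays with 1 coefficient per comparison, and p-values were adjusted by Benjamini-Hochberg over all probes. A call is an adjusted p under 0.05. A probe with at most 1 value in each comparison has no residual degrees of freedom, its spread is limma's prior alone, and its values are given with no test. Single channels were compared after loess and Aquantile. Members, lists and tests were chosen with earlier results of these data known. The text names probes called in any comparison, the 5 highest and 5 lowest in each among those with a value on every array of the comparison, a set of main chains, and list genes that were called or among the 3 furthest from 0 in their list. Without dye swaps, dye and treatment cannot be told apart within a ratio. The number of arrays limits the precision. Where nothing says that replicates came from separate cultures, p-values measure only the spread between these samples. The fit was tested on simulated data, with spread drawn from limma's prior. Only 66 or 67 probes were changed at each size, far fewer than were called between the genotypes in these data. The shares hold for that setting and are not the shares recovered here. In these data genotype ratios under a log2 of 1 were called, such as Col4a4 at 0.68. A log2 change of 1 was called for 3%, 3% and 0% of changed probes in the WT, WS and genotype comparisons. A change of 2 was called for 83.6%, 86.6% and 80.6%. For single channels these shares were 0% and 7.5%. Alternatives changed the background correction, normalization, outlier and dim spots, the arrays in the fit, a replicate block, thresholds and the probe per gene. The symbols of all 37 genes were found in RefSeq's table, and promoters came from RefSeq (GRCm38.p6). Columns of Feature Extraction's own p-values were not used.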

Additional observations from a re-analysis of the deposited data

How the results depend on the processing

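The number of collagen probes called rested on the spread that the fit used, and the cause of each change was not tested. For WT cells after H2O2 (1 call), 3 were called with outlier spots kept, 3 from the series table of the authors, 7 with normexp, 4 among probes well above background in both dyes on every array, 28 with only the arrays of the comparison in the fit, 25 with the extraction day term, and 0 with median centring, the replicate block or the thresholds of the study's lists. Leaving out 1 array gave 0 to 25 calls, 25 without either genotype array, which is the fit with the day term by construction, and 0 without any other. For WS cells (0 calls) there were 1 with median centring, 10 with only their own arrays, 10 with the day term and 0 to 10 on leaving out 1 array, 10 again without either genotype array. Between untreated genotypes (17 calls) there were 5 with Feature Extraction's ratios, 10 with median centring, 6 with only their own arrays, 7 with the replicate block, 3 with the study's thresholds, 39 with the day term and 6 to 13 on leaving out 1 treatment array. The day term takes up the whole difference between the 2 genotype arrays. The 39 calls thus rest on the spread of the treatment arrays and include probes whose genotype arrays lay far apart, such as Col5a3 A_52_P503796. For the difference of responses (0 calls) there were 3 with only the treatment arrays, 3 with the day term and 0 to 3 on leaving out 1 array. Within Cy3 (1 call) there were 2 with outliers kept, 0 with normexp, 0 with the replicate block and 0 to 10 on leaving out 1 array. Within Cy5 (0 calls) there were 1 with outliers kept, 3 among probes well above background and 0 to 6 on leaving out 1 array. No called probe changed sign.

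Over all probes the split of calls moved with the scaling. For WT cells it was 48 higher and 56 lower, against 1377 and 863 with normexp, 381 and 130 with Feature Extraction's ratios and 11 and 2 with median centring. Between genotypes it was 4040 and 4021, against 2659 and 1714 with median centring. Keeping outlier spots moved the median of all probes within Cy3 from -0.10 to 0.03.

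Same-numbered WT and WS arrays had deviations that correlated at -0.046 over 29913 probes and at 0.268 over 42 collagen probes. Whether replicate numbers pair the arrays was not tested further. The extraction day term and a loess curve through all spots were chosen after seeing the data. A block by scan date was not run, since the headers hold extraction days. Cy5 limited what could be read, being well above background for 32 to 54 of 67 collagen probes per array.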
